A study of Mus musculus with 6 samples.

Results

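The 8 genes described here encode the guanine nucleotide exchange factors that act on Ras in mammals: *Sos1*, *Sos2*, *Rasgrp1*, *Rasgrp2*, *Rasgrp3*, *Rasgrp4*, *Rasgrf1* and *Rasgrf2*. The rule takes them by gene name and uses no measured value, and all 8 were found among the 53657 gene names counted in every sample. RNA came from MCAM-bright, tdTomato-positive undifferentiated spermatogonia (Aundiff) of 3 WT and 3 MUT adult mice, each sorted as its own sample 3 months after tamoxifen. All 6 mice carried *Gfra1-creERT2*, a tamoxifen-activated Cre recombinase expressed from the *Gfra1* promoter, and a floxed tdTomato reporter, and all received 2 courses of tamoxifen. MUT mice also carried 1 copy of the flox-and-replace allele *FR-Hras G12V*, in which recombination replaces wild-type *Hras* with the G12V form under the endogenous promoter. WT mice were littermates that lacked this allele, and both groups were kept on a mixed background of C57BL/6J, 129/Sv and Swiss Black. The Cre acts only where *Gfra1* was expressed at the time of tamoxifen, and the sort gate defines the cells by MCAM and tdTomato.

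Ras proteins are switches that are off with GDP bound and on with GTP bound. An exchange factor opens the nucleotide pocket so that GDP leaves and the more abundant GTP enters, and all 8 proteins do this with a catalytic domain of the CDC25 type. They differ in what brings them to Ras. SOS proteins are carried by the adaptor GRB2 to activated receptor tyrosine kinases, among them the GDNF receptor RET and the FGF receptors of spermatogonia. RASGRP1, RASGRP3 and RASGRP4 respond to diacylglycerol, RASGRP2 is calcium-sensitive, and RASGRF proteins respond to calcium and calmodulin. The G12V change leaves HRAS unable to hydrolyse GTP efficiently, so the mutated protein depends little on exchange to stay on. The comparison of MUT with WT addresses whether the transcripts of the exchange factors themselves differed once a constitutively active HRAS was present.

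Each library held between 22729292 and 23550433 counts, so that 3 counts corresponded to between 0.127 and 0.132 CPM (counts scaled to the TMM-normalised library size). The 12 markers of undifferentiated spermatogonia, led by *Mcam*, summed to between 2361 and 2949 CPM in WT and between 2502 and 2946 CPM in MUT, and each was detected above 3 counts. RNA of other cells was present in every sample, with 8 macrophage markers summing to between 783 and 1458 CPM. The 8 markers of meiotic and haploid germ cells, led by *Prm2*, summed to 1241, 1016 and 1578 CPM in WT and 826, 864 and 1244 CPM in MUT, groups that overlapped although MUT was the lower in each numbered pair. Of these markers *Tnp1*, a histone replacement protein of spermatids, had a log2 fold change of -0.59 (SE 0.260, adjusted p = 0.998 in edgeR), and with the replicate number as a block edgeR gave it an adjusted p of 0.0794 and DESeq2 one of 0.000259. *Prm1* had a log2 fold change of -0.62 (SE 0.263), with adjusted p of 0.189 in edgeR and 0.00126 in DESeq2 under the block. No label states that samples of the same number are pairs, so the block is an assumption. The log2 fold changes of *Prm2*, *Acrv1* and *Spo11* were -0.56, -0.22 and -0.18. Those of *Sycp3*, *Sycp1* and *Piwil1* were -0.0069, 0.019 and 0.20, so the markers of this list did not all move the same way. WT replicate 3 and MUT replicate 3 stood apart from the other samples of their groups. WT replicate 3 had the highest macrophage sum, 1458 CPM, and MUT replicate 3 had 67.3 CPM over 6 Leydig cell markers, against 12.9 to 21.1 CPM in the other 5 samples. In such sorted samples a lower level cannot be told apart from a smaller number of cells that express the gene. The targeted gene *Hras* had 56.8, 60.1 and 65.2 CPM in WT and 69.9, 69.1 and 61.0 CPM in MUT, overlapping groups whose counts do not separate the alleles, and the tdTomato reporter was between 52.6 and 66.4 CPM over the 6 samples.

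The sequence upstream of the start site is shown for *Sos1* and its paralogue *Sos2*, which were among the higher members by level, and for *Rasgrp3*, the lowest. Each window is the 250 bases before a RefSeq start site in GRCm38.p6 and holds no annotated exon, and each CpG is in capitals.
Sos1, chr17:80480454-80480703, minus strand: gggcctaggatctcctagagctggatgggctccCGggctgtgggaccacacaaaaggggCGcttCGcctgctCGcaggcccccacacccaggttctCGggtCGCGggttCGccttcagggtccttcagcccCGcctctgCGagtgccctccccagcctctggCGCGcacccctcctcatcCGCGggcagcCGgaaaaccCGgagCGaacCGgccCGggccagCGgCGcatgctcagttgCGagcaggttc
Sos2, chr12:69681853-69682102, minus strand: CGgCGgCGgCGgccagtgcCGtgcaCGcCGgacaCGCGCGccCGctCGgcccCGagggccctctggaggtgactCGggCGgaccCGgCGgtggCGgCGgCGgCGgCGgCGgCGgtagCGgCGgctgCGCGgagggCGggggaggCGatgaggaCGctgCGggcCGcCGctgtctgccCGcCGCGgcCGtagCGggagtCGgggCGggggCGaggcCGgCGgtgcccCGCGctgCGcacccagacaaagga
Rasgrp3, chr17:75435655-75435904, plus strand: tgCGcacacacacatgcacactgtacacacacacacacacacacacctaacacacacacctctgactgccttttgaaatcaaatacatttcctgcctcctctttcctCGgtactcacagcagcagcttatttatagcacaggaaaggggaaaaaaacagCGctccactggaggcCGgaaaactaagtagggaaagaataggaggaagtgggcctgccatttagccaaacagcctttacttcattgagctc

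The *Sos2* window had 47 CpGs and was 82.8% G or C, more CpGs than 99.8% of the 32851 windows of all genes in the same set. The *Sos1* window had 22 CpGs at 70.4% G or C. The *Rasgrp3* window had 4, below the median of 6 over all windows, with a run of alternating A and C near its 5′ end. A second *Rasgrp3* start site, inside the gene, had 8 CpGs, and the 6 windows found for *Rasgrp1*, *Rasgrp2*, *Rasgrf1*, *Rasgrf2* and *Sos1* had between 21 and 31. *Rasgrp4* was not matched. Letters of a GC box (GGGCGG on either strand) occurred in 5 of the 9 windows of 7 members, including that of *Sos2* but not those of *Sos1* and *Rasgrp3*, and in 32.7% of all windows. CCAAT on either strand occurred in 1, that of *Rasgrf1*, and in 33.8% of all windows. TATAAA on either strand occurred only in the first *Rasgrp3* window among the 9, and in 12.4% of all windows. These matches describe the letters and were not tested against the levels.

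All 8 members were transcribed above the counting floor in every sample and all 8 passed the filter on low counts. Levels between genes were compared as FPKM, the CPM per kilobase of the merged exons given in the count files. *Sos1* had the highest level, 7.94 ± 0.730 FPKM (SD over 6 samples), then *Rasgrp2* with 4.51 ± 0.428 FPKM and *Sos2* with 2.92 ± 0.310 FPKM. The ranges of these 3 genes were apart from each other and from the rest, and their order held in 6 of 6 samples. *Rasgrp1*, *Rasgrp4*, *Rasgrf2*, *Rasgrf1* and *Rasgrp3* followed, with means of 1.18, 1.05, 0.917, 0.848 and 0.677 FPKM, and within these 5 each overlapped its neighbours in the order. Among the 19656 genes tested, *Sos1* had a mean FPKM above 64.5% of genes, *Rasgrp2* above 53.1%, *Sos2* above 44.6%, and the other 5 above between 19.9% and 29.0%.

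The order depended on the length used. The merged exons of *Rasgrp2* cover 12384 bases, the union over its annotated transcripts (24 in GENCODE vM21), whereas the transcript with its longest coding sequence has 2296 bases. Divided by that transcript length, *Rasgrp2* had 24.3 ± 2.31 FPKM (SD over 6 samples) and *Sos1* 8.39 ± 0.772 FPKM. On this scale the level of *Rasgrp2* was between 2.43 and 3.48 times that of *Sos1* in every sample, while on the merged scale it was between 0.476 and 0.682 of *Sos1*. Which length fits the RNA in these cells cannot be read from counts per gene. By transcript length *Sos2* came next after *Rasgrp2* and *Sos1*, with 5.52 FPKM. Below it, *Rasgrf2* (2.37 FPKM) and *Rasgrf1* (2.29 FPKM) came before *Rasgrp4* (1.44 FPKM) and *Rasgrp1* (1.26 FPKM). *Rasgrf1* was above *Rasgrp4* in 6 of 6 samples, with their ranges apart. *Rasgrp3* was lowest on both scales, and *Sos1* stayed above *Sos2* on both, by between 2.56 and 3.00 times on the merged exon scale. By transcript length these 2 means were closer, 8.39 FPKM for *Sos1* against 5.52 FPKM for *Sos2*.

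**Figure D1:**
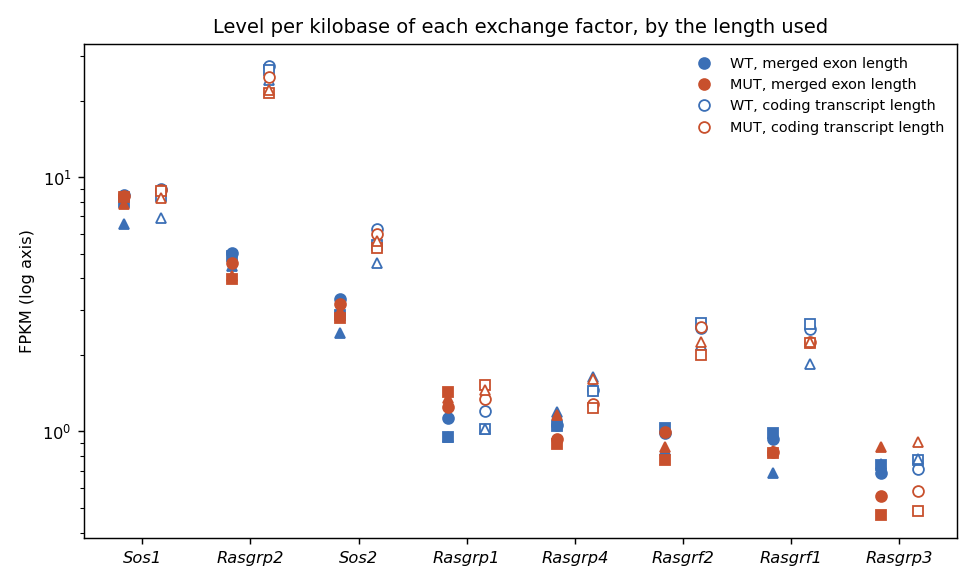
FPKM of each exchange factor (vertical axis, log scale) in the 6 samples, with filled symbols for the merged exon length, open symbols for the coding transcript length, and circles, squares and triangles for replicates 1, 2 and 3. *Sos1* leads by merged exon length and *Rasgrp2*, at between 21.5 and 27.2 FPKM, by transcript length.

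None of the 8 members was called between genotypes by edgeR's quasi-likelihood test at an adjusted p under 0.1, a rule that called 2 of the 19656 tested genes (0.0102%), or 13 (0.0661%) with the replicate number as a block. DESeq2 and limma voom also called 0 of the 8. At an unadjusted p under 0.05 edgeR gave 1 member, *Rasgrp1*, where 2.78% of all tested genes passed, and with the block 2 members, *Rasgrp1* and *Rasgrp2*, against 6.6%. DESeq2 gave 1 member without the block and 0 with it. Of the 8 log2 fold changes 3 were positive and 5 negative, with a median of -0.090 against 0.0066 over all tested genes. Among those 19656 genes, 10191 were positive. The adjusted p was 0.998 for each of the 8 (edgeR with Benjamini-Hochberg adjustment over 19656 genes). The 95% intervals, taken gene by gene, show how large a difference these samples leave room for. They ran at the widest from 0.593 times the WT level for *Rasgrp3* to 1.68 times for *Rasgrp1*, so a change of 2-fold in either direction lay outside all 8.

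**Figure D2:**
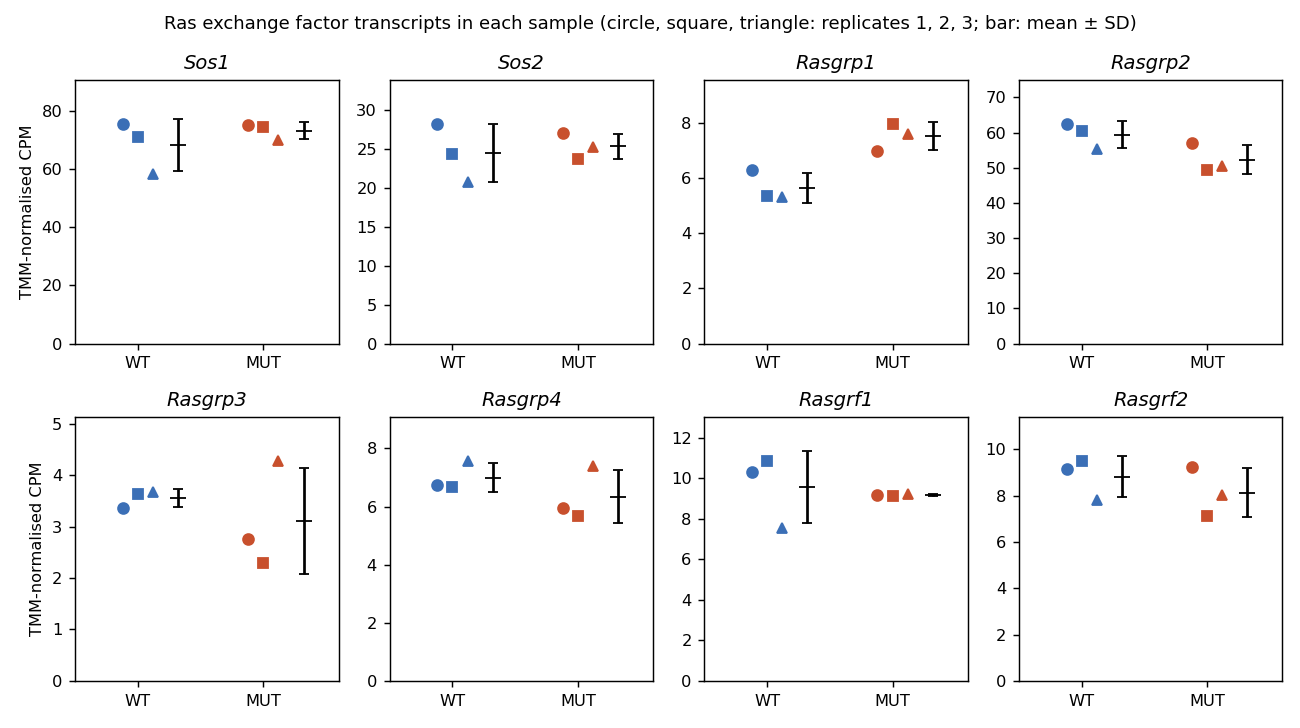
TMM-normalised CPM (vertical axes, each from 0) of the 8 exchange factors in each WT and MUT sample, with circles, squares and triangles for replicates 1, 2 and 3 and bars for the mean ± SD. The groups overlap for every gene except *Rasgrp1*, where the MUT samples lie between 6.99 and 7.98 CPM and the WT samples between 5.33 and 6.29 CPM.

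*Sos1* (chr17:80393752-80480453, minus strand, GRCm38) encodes the widely expressed SOS protein that couples receptor tyrosine kinases to Ras. It had 75.7, 71.1 and 58.4 CPM in WT replicates 1 to 3 and 75.1, 74.6 and 69.9 CPM in MUT replicates 1 to 3. WT replicate 3 was the lowest of all 6, and the other 5 samples lay within a narrow band. The log2 fold change was 0.099 (SE 0.099, 95% interval -0.13 to 0.32; exact two-sided permutation test, p = 0.7). Without WT replicate 3 it was -0.0035.

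*Sos2* (chr12:69583762-69681852, minus strand) encodes the second SOS protein, which shares its domains with SOS1. Its levels were 28.2, 24.4 and 20.7 CPM in WT and 27.0, 23.7 and 25.2 CPM in MUT. WT replicate 3 was again the lowest and WT replicate 1 the highest. The log2 fold change was 0.051 (SE 0.125, 95% interval -0.23 to 0.34), and it was -0.056 without WT replicate 3 and -0.0053 without MUT replicate 1. The ratio of *Sos1* to *Sos2* FPKM on the merged exon scale was 2.56, 2.78 and 2.69 in WT and 2.66, 3.00 and 2.65 in MUT, and the groups overlapped in this proportion too.

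The *Rasgrp* genes gave both the most positive and the most negative fold changes of the family. *Rasgrp1* (chr2:117279993-117343001, minus strand) is best known as the activator of Ras downstream of the T cell receptor. Its levels were 6.29, 5.34 and 5.33 CPM in WT and 6.99, 7.98 and 7.61 CPM in MUT, from between 125 and 184 counts per sample. Every MUT sample lay above every WT sample, as it did for 4.69% of tested genes (either direction, 7.69%), and MUT was at 1.11, 1.49 and 1.43 times WT in the pairs numbered 1, 2 and 3. The log2 fold change was 0.41 (SE 0.147, 95% interval 0.078 to 0.75), with an unadjusted p of 0.0214 and an adjusted p of 0.998 from edgeR. An exact permutation test of this gene alone, two-sided, gave p = 0.1, which is as low as 6 samples in equal groups can reach. *Rasgrp1* therefore did not pass the test over all genes, and its unadjusted p from edgeR was 0.0805 without WT replicate 2 and 0.0812 without MUT replicate 2. The summed level of 8 T lymphocyte markers overlapped between the groups, at between 21.8 and 25.7 CPM in WT and between 21.3 and 23.1 CPM in MUT, most of it *Lck* and *Cd4*. *Cd3e* was between 2.22 and 3.25 CPM over the 6 samples, *Cd3g* had 3 counts or fewer in each, and *Cd4* was between 7.47 and 11.1 CPM in WT and between 6.38 and 6.58 CPM in MUT.

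*Rasgrp2* (chr19:6399340-6415216, plus strand) encodes a calcium-sensitive exchange factor known mainly as the activator of Rap1 in platelets. It had 62.5, 60.6 and 55.3 CPM in WT and 57.0, 49.3 and 50.4 CPM in MUT, from between 1137 and 1431 counts, the most after *Sos1*. MUT replicate 1 lay above WT replicate 3, so the groups overlapped, and MUT was at 0.911, 0.814 and 0.912 of WT in the pairs numbered 1, 2 and 3. The log2 fold change was -0.19 (SE 0.083, 95% interval -0.38 to 0.0042, unadjusted p = 0.0541 from edgeR; exact two-sided permutation test, p = 0.2). Platelet markers summed to between 22.5 and 37.3 CPM in WT and between 22.6 and 28.8 CPM in MUT, mostly *Pf4*, which macrophages also express. *Gp1ba* was between 4.0 and 6.1 CPM and *Itga2b* between 2.4 and 3.3 CPM over the samples, while *Gp9* and *Ppbp* reached at most 0.173 and 0.0845 CPM. The sum of the meiotic and haploid germ cell markers was also the lower in MUT in each numbered pair, as were *Rasgrp2* and *Rasgrp4*. Not every marker of that list was lower in MUT, and the part of these cells in either result was not tested. The share of all tested genes that were lower in MUT in each numbered pair was not computed. An antisense gene shares 265 bases (2.1%) of the exon length of *Rasgrp2*, and that gene had 9 counts or fewer in every sample.

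*Rasgrp3* (chr17:75435905-75529043, plus strand), known from B cells and endothelium, had the fewest counts of the family, between 53 and 100. Its levels were 3.37, 3.63 and 3.68 CPM in WT and 2.75, 2.30 and 4.27 CPM in MUT. MUT replicate 3, the sample with the raised Leydig cell markers, was the highest of all 6, and the other MUT samples were the lowest. Whether Leydig cell RNA had a part in this was not tested. The log2 fold change was -0.19 (SE 0.245, 95% interval -0.75 to 0.37), and without MUT replicate 3 it was -0.49 (SE 0.203, adjusted p = 0.545 from edgeR). Endothelial markers overlapped between the groups, at between 55.1 and 63.8 CPM in WT and between 57.3 and 63.5 CPM in MUT. The B cell and plasma cell list, at between 16.4 and 76.1 CPM in WT and between 6.81 and 20.9 CPM in MUT, moved with *Jchain* (42.6 and 69.8 CPM in WT replicates 2 and 3), and its part in the *Rasgrp3* level was not tested.

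*Rasgrp4* (chr7:29134851-29153961, plus strand) is known as a mast cell exchange factor. It was measured at 6.73, 6.67 and 7.57 CPM in WT and 5.94, 5.68 and 7.40 CPM in MUT, and in both genotypes replicate 3 was the highest. MUT was at 0.883, 0.852 and 0.978 of WT in the pairs numbered 1, 2 and 3, although the groups overlapped. MUT minus WT came to -0.14 on the log2 scale (SE 0.159, 95% interval -0.50 to 0.22). Each of the 6 mast cell markers had 3 counts or fewer in every sample, and *Cma1*, *Ms4a2* and *Fcer1a* had none. This allows each marker at most 0.132 CPM before TMM normalisation. The gene shares 978 bases (15.4%) of its exon length with *Fam98c* on the opposite strand. The counting ignored strand and left out fragments that overlapped both genes, so the *Rasgrp4* count is uncertain. *Fam98c* had between 168 and 270 counts per sample, against between 131 and 179 for *Rasgrp4*.

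*Rasgrf1* (chr9:89909908-90026977, plus strand) and *Rasgrf2* (chr13:91880400-92131656, minus strand) encode calmodulin-binding exchange factors best known from neurons, and mouse *Rasgrf1* is an imprinted gene expressed from the paternal allele in brain. *Rasgrf1* had 10.3, 10.9 and 7.57 CPM in WT and 9.18, 9.11 and 9.23 CPM in MUT. The MUT samples lay close together, inside the range of the WT samples. Its log2 fold change was -0.062 (SE 0.161, 95% interval -0.43 to 0.30), and it was 0.025 without WT replicate 2. *Rasgrf2* had 9.13, 9.49 and 7.82 CPM in WT and 9.22, 7.11 and 8.04 CPM in MUT, with a log2 fold change of -0.12 (SE 0.153, 95% interval -0.47 to 0.23). WT replicate 3 was the lowest WT sample for *Sos1*, *Sos2*, *Rasgrf1*, *Rasgrf2*, *Rasgrp1* and *Rasgrp2* and the highest WT sample for *Rasgrp3* and *Rasgrp4*.

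**Figure D3:**
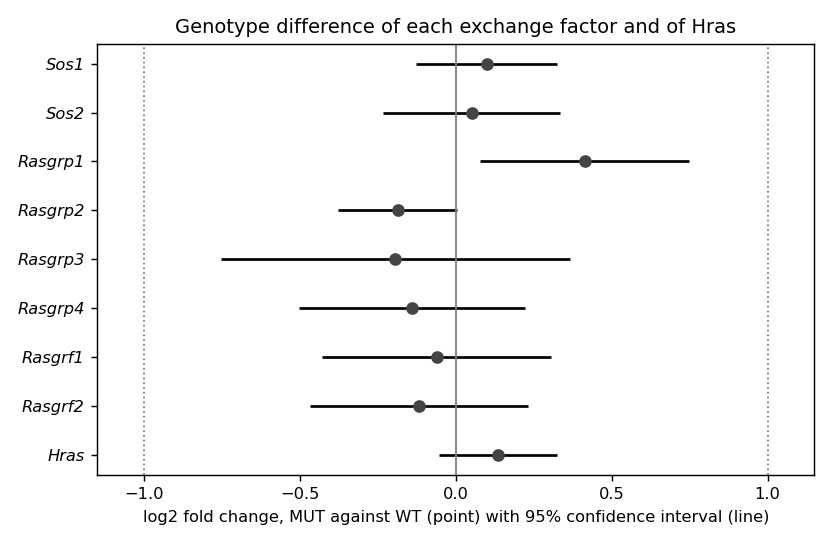
Log2 fold change of MUT against WT (horizontal axis) for the 8 exchange factors and *Hras*, with points for the edgeR estimate and lines for the 95% interval; dotted lines mark 2-fold changes. The interval of *Rasgrp1*, from 0.078 to 0.75, does not reach 0, and no line reaches a dotted line.

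The genes that work beside the exchange factors were taken as 5 lists of 80 genes, of which 79 were tested. None was called by edgeR at an adjusted p under 0.1, and none by DESeq2 or limma voom, and 2 of the 79 had an unadjusted p under 0.05 in edgeR, *Dgka* and *Plcb1*, a share no higher than the 2.78% of all tested genes. The 11 Ras-family substrates had a median log2 fold change of -0.028, with 4 positive and 7 negative, and 0 of 11 passed the unadjusted threshold. The most abundant per kilobase were *Rras* (84.0 FPKM) and *Rap1b* (59.2 FPKM), a target of RASGRP2. *Hras* was at 17.1 FPKM, above each of the 8 exchange factors on the same merged exon scale, with a log2 fold change of 0.14, and *Rap2a* was at -0.11.

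Of the 18 other genes with a CDC25-type domain, which encode exchange factors mainly for Rap and Ral, 13 had a positive log2 fold change and the median was 0.073. *Ralgds*, a Ral exchange factor that is itself bound by active Ras, was the highest at 38.3 FPKM, and *Rapgef6* had 14.9 FPKM, both above *Sos1* on the merged exon scale. *Ralgps1* and *Plce1* had the smallest unadjusted p of this list, 0.128 and 0.155 from edgeR, at log2 fold changes of 0.16 and 0.31. Over all tested genes, 10191 of 19656 had a positive log2 fold change. Of the 15 genes listed for SOS recruitment and as adaptors, 11 were positive, with a median of 0.036. *Grb2*, the adaptor that carries SOS, was at 26.8 FPKM with a log2 fold change of 0.063 (SE 0.067), and *Abi1* was at 33.2 FPKM with 0.036. *Itsn1* and *Frs3*, with the smallest unadjusted p there, had log2 fold changes of 0.084 and 0.076.

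The diacylglycerol and calcium list holds the enzymes that make diacylglycerol (phospholipases C), those that remove it (diacylglycerol kinases), protein kinases C and calmodulin. Of 25 tested genes 16 had a positive log2 fold change, with a median of 0.042. *Dgka*, a kinase that converts diacylglycerol to phosphatidic acid and so limits RASGRP1 in T cells, was at 64.3, 61.7 and 59.0 CPM in the WT samples and at 71.5, 71.4 and 74.1 CPM in the MUT samples. Its log2 fold change was 0.23 (SE 0.064, unadjusted p = 0.00637, adjusted p = 0.998 from edgeR), and every MUT sample lay above every WT sample. *Plcb1*, a phospholipase C, was scarce, between 17 and 36 counts per sample, and also separated the groups, with a log2 fold change of 0.62 (SE 0.254, unadjusted p = 0.0386, adjusted p = 0.998 from edgeR). The groups did not overlap either for *Plcg2* (log2 fold change 0.16), *Plcb3* (0.13) and *Prkcb* (-0.28), which are named here after their values were seen. With *Dgka* and *Plcb1* these were 5 of 25 genes, against 7.69% of all tested genes. *Calm2* and *Calm3* were the most abundant of the list, at 244 and 72.3 FPKM.

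The 10 GTPase-activating proteins, which switch Ras off and to which the G12V form does not respond, had a median log2 fold change of 0.047, with 7 positive. *Rasa3* (22.4 FPKM) and *Rasa1* (21.2 FPKM) were the most abundant. *Rasal3* and *Rasal1* had the smallest unadjusted p, 0.0856 and 0.232 from edgeR, at log2 fold changes of -0.31 and 0.21, and *Rasal1* was the 1 gene of these 10 whose groups did not overlap, near the 7.69% of all tested genes.

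**Figure D4:**
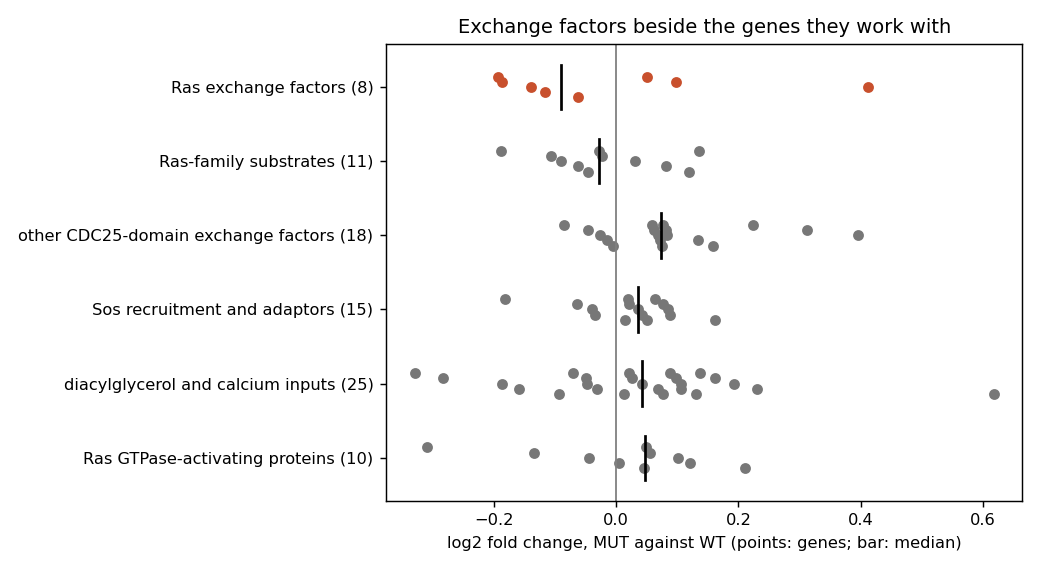
Log2 fold change of MUT against WT (horizontal axis) for the 8 exchange factors and for the tested genes of 5 lists of their substrates, relatives, recruiters, inputs and antagonists, with the number of genes in parentheses, points for genes and bars for medians. All medians lie between -0.090 and 0.073, and *Plcb1*, at 0.62, is the gene farthest from 0.

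The genes whose log2 CPM followed *Sos1* most closely over the 6 samples, among 10582 others above 10 CPM, were *Zmym4*, *Lcor* and *Scaf11*, each with a Pearson r of 0.997 to 0.998. With 6 samples and so many genes compared this is a description only.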

How the data were processed

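Adult spermatogonia of 3 WT and 3 MUT mice were profiled by stranded poly(A) RNA-seq with paired-end reads. Per the file headers, the deposited values are unnormalised counts of read pairs for each gene name, which the authors made with featureCounts 1.6.2 on GENCODE vM17 plus a tdTomato entry. Strand was ignored, and multi-mapping pairs and pairs assigned to more than 1 gene were not counted. The submitters' processing notes name STAR, FastQC and GRCm38.p6.

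The counts were joined by gene name. In R 4.3.3, edgeR 4.0.16 normalised them by TMM, filterByExpr kept 19656 genes, and the quasi-likelihood test compared MUT with WT at an adjusted p of 0.1 (Benjamini-Hochberg). SEs were derived from the coefficient and its F statistic, and 95% intervals used the fit's degrees of freedom. DESeq2 1.42.0 and limma 3.58.1 (voom) were alternatives, as were DESeq2 size factors, 2 filters on low counts, an adjusted p of 0.05, the replicate number as a block, and each sample left out. The fit was tested on simulated counts. CPM are TMM-normalised. Log2 CPM used a prior count of 2. The floor of 3 counts covers counting error only.

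The sample numbers were treated as pairs, because the deviations of same-numbered samples from their group means correlated at 0.30, 0.16 and 0.40 across 10583 genes above 10 CPM, though WT replicate 2 with MUT replicate 1 reached 0.33. The controls were littermates, but no label names the pairs, and the main comparison has no block.

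Members and lists were chosen with earlier results of these data known. Individually named genes were the members, *Hras*, tdTomato, per pathway list any called gene, the 2 with the smallest unadjusted p and the 2 most abundant per kilobase, per cell type list the most abundant, and the 3 genes most like the highest member. Other cell type markers and *Fam98c* were named after their values were seen, as stated for other exceptions. Coding transcript lengths came from GENCODE vM21 and upstream windows from RefSeq, both on GRCm38.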

Additional observations from a re-analysis of the deposited data

How the results depend on the processing

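No member and no gene of the 5 pathway lists was called under any alternative run. The smallest adjusted p of a member was 0.545, for *Rasgrp3* in edgeR without MUT replicate 3, where 2 members had an unadjusted p under 0.05, as did 8.64% of all genes tested in that fit. The genes called among all tested, 2 in the main comparison, numbered 9 with DESeq2, 4 with limma voom, 5 without a filter, 0 when each sample had to hold 10 counts (479 with an unadjusted p under 0.05 in edgeR) and 1 with the adjusted p cut at 0.05. A block for the replicate number gave 13 in edgeR and 55 in DESeq2 and changed no call of a member or list gene. Leaving out 1 sample gave between 0 and 6 genes (0 without MUT replicate 2, with 292 at an unadjusted p under 0.05). With 1 sample left out, the sign of the log2 fold change turned for *Sos1* (-0.0035 to 0.17), *Sos2* (-0.056 to 0.16) and *Rasgrf1* (-0.21 to 0.025). The sign turned without WT replicate 3 for *Sos1* and *Sos2*, without MUT replicate 1 for *Sos2* and without WT replicate 2 for *Rasgrf1*. No other member changed sign under any alternative. The cause was not tested. Levels per kilobase moved with the coding transcript length, chosen after seeing the data, for *Sos2* (5.52 FPKM), *Rasgrp2* (24.3), *Rasgrp4* (1.44), *Rasgrf1* (2.29) and *Rasgrf2* (2.37). At between 53 and 100 counts, *Rasgrp3* had the widest interval of the family.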

Other observations

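The proportion of *Rasgrp2* to *Sos1*, the most abundant members, was computed after their values were seen and has no test. On the merged exon scale the WT samples gave 0.595, 0.613 and 0.682 and the MUT samples 0.546, 0.476 and 0.520, so that every MUT sample lay below every WT sample. Each gene alone overlapped between the groups. Of single tested genes 7.69% separated the groups, and the share among ratios of genes was not computed. By family branch, the 4 *Rasgrp* genes summed to 78.9, 76.2 and 71.9 CPM in WT and 72.7, 65.3 and 69.7 CPM in MUT. The *Sos* genes summed to 103.9, 95.5 and 79.1 CPM in WT and 102.1, 98.3 and 95.1 CPM in MUT.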
